A study of Homo sapiens with 18 samples.

Results

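The genes described here encode the proteins of the mitochondrial ribosome. They are the rows of both count tables whose symbol is MRPL or MRPS followed by a number, with or without a closing letter, and 78 of 39368 listed genes met that rule. RNA was sequenced from 2 human cell lines, BE2C and Kelly, which derive from neuroblastoma and carry an amplified MYCN oncogene. In each line, cells carrying the vector pLKO-GFP, the control group, were compared with cells carrying the short hairpin RNA shAhR-1 or shAhR-2 against AHR, the gene of the ligand-activated aryl hydrocarbon receptor. There were 3 libraries in each of the 6 groups, and each of the 18 libraries had between 32799682 and 45469353 counts. The pLKO vectors are lentiviral, and the sources used here do not say how infected cells were selected, when they were harvested, whether they were clones or pools, or whether replicates were grown apart. The p-values therefore cover only the spread among the libraries at hand, and that spread may be technical.

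Mitochondrial ribosomes translate the few messenger RNAs of the mitochondrial genome, which encode core subunits of the respiratory chain and of ATP synthase. Their ribosomal RNAs come from mitochondrial DNA, while every protein is encoded in the nucleus, made in the cytosol and imported. Some of these proteins have counterparts in bacterial ribosomes and others are particular to mitochondria; the large subunit holds the peptidyl transferase centre, and the small subunit binds the messenger RNA and holds the decoding centre. By this division the members were 30 large subunit genes with a bacterial counterpart, 21 mitochondria-specific large subunit genes, 16 small subunit genes with a bacterial counterpart and 10 mitochondria-specific small subunit genes. MRPS18A and MRPS30 were counted with the large subunit, where their proteins sit despite their symbols. The remaining member, MRPS36, encodes a component of the alpha-ketoglutarate dehydrogenase complex and is not a ribosome subunit.

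Several properties of the libraries bear on the results. AHR had 4, 4 and 6 counts in the BE2C controls, 8, 0 and 0 with shAhR-1 and 0 in each library with shAhR-2. In Kelly it had 4, 26 and 29 counts in controls, 18, 11 and 22 in the libraries labelled shAhR-1, and 0, 4 and 0 with shAhR-2. The Kelly libraries labelled shAhR-1 overlapped the controls in AHR, with a log2 fold change of -0.10 ± 0.54 (SE, n = 3 against 3, edgeR adjusted p = 0.889), so any direction drawn from them rests on the label alone. In BE2C the shAhR-1 library of replicate 1 had more AHR counts than any control, so that group overlapped its controls too, and AHR was too low there to be tested. The BE2C shAhR-2 library of replicate 1 stood apart from its replicates, with 25.1% of its counts from mitochondrially encoded genes against 20.5% in each of the others. The 8 adrenergic neuroblastoma markers summed to 3884 to 3992 CPM (counts scaled to a common library size) in BE2C controls, 3314 to 3340 with shAhR-1 and 2044 to 2077 with shAhR-2. In Kelly they summed to 8127 to 8690, 4434 to 4568 and 5096 to 5189 CPM, so the lines' defining markers were present in every library. The 10 fibroblast markers summed to at most 310 CPM in any library and the 8 Schwann cell and glial markers to at most 13.8 CPM, both highest in BE2C with shAhR-2, and the 7 leukocyte markers to at most 8.21 CPM. The part of these differences in the results below was not tested. In bulk libraries, fewer cells of a kind and less RNA per cell cannot be told apart.

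Of the 78 members, 69 had an entry in the RefSeq promoter table (build GRCh38.p14), and each entry was searched on both strands from 250 bases before to 50 bases after the gene start. The YY1 motif AAGATGGC was found in 20 members, 29%, against 3.03% of all 27305 promoters and 3.91% of the 15843 promoters of coding genes. In 15 of the 20 a match began at or after the gene start, on the gene's own strand in all 15. These matches are shown for 11 of the members described below, as windows of 30 bases, 5′ to 3′ along the gene, with the motif in capitals.
MRPL20, chr1:1407260-1407289, minus strand: ccgacccgggcAAGATGGCagcggcgctgc
MRPL38, chr17:75904860-75904889, minus strand: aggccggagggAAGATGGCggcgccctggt
MRPL45, chr17:38297170-38297199, plus strand: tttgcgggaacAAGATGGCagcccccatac
MRPL50, chr9:101398577-101398606, minus strand: ggatctcatcgAAGATGGCggcgcgatctg
MRPL51, chr12:6493223-6493252, minus strand: gggtaaggcccAAGATGGCtgtcttcgcct
MRPS10, chr6:42217834-42217863, minus strand: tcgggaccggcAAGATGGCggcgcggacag
MRPS18A, chr6:43687764-43687793, minus strand: gtaggtttttgAAGATGGCggccctcaagg
MRPS18B, chr6:30617852-30617881, plus strand: gggcgtacgtcAAGATGGCggcgtctgtat
MRPS27, chr5:72320206-72320235, minus strand: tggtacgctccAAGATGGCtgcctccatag
MRPS30, chr5:44808949-44808978, plus strand: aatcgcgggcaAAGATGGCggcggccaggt
MRPS7, chr17:75261887-75261916, plus strand: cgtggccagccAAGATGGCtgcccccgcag
In these windows the match began between 7 and 24 bases after the RefSeq start. Of the members with the YY1 letters, 6 of 20 tested fell in all 4 contrasts of a hairpin against its control, and of those without them 14 of 48 did. Of all genes tested in both lines, 8.88% did. A match is a run of letters, not a measured binding site.

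The AHR and ARNT core GCGTG was found in 39 members, 56.5%, against 36.3% of all promoters and 44.1% of coding ones. With it, 9 of 38 tested members fell in all 4 contrasts, and without it 11 of 30, beside 8.88% of all genes tested in both lines. The E-box CACGTG, bound by MYC and MAX, was found in 6 members, or 8.70%, against 7.43% of all promoters and 8.88% of coding ones. The ETS factor motif CCGGAAGT was present in 11 members, 15.9%, against 4.44% of all promoters and 6.19% of coding ones. The NRF1 motif GCGCATGCG was present in only 3 members, 4.35%, against 2.10% and 2.76%. With the E-box 2 of 6 tested members fell in all 4 contrasts, and without it 18 of 62. For the ETS motif these counts were 3 of 10 and 17 of 58, and for NRF1 0 of 3 and 20 of 65. The motifs can overlap, since a GCGTG may stand inside or beside another match. For the leading pair of members that fell in all 4 contrasts, MRPL57 and MRPL45, and for MRPL58, which rose in all 4, the part of the 250 bases upstream of the RefSeq start that lies outside every GENCODE exon is given next, with the reverse of GCGTG in capitals where the stretch holds it (MRPL45).
MRPL57, chr13:21176603-21176644, plus strand: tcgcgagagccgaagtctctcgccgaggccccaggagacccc
MRPL45, chr17:38296918-38297022, plus strand: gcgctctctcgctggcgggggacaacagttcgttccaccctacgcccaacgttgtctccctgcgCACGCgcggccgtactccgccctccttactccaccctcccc
MRPL58, chr17:75012420-75012669, plus strand: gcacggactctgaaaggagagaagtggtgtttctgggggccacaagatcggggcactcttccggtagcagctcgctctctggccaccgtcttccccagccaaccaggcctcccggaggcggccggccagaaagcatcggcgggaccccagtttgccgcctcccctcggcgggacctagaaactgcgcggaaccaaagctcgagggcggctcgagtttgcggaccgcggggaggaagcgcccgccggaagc
MRPL48, the other riser, is not shown because its first GENCODE exon covers the whole window. In the part not shown, MRPL57 had a GCGTG at position -232 from the RefSeq start and MRPL45 an E-box CACGTG at -133. None of the 5 motifs was found in the 250 bases upstream of MRPL48 and MRPL58, which says only that these letters are not there. MRPL2, MRPL10, MRPL13, MRPL15, MRPL21, MRPL23, MRPL35, MRPS28 and MRPS36 had no entry.

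More mitochondrial ribosomal protein genes fell than rose with each hairpin in each line. In BE2C with shAhR-1, 37 members fell and 12 rose of 77 tested, while 27.1% of all tested genes fell and 25.2% rose (edgeR's quasi-likelihood test, Benjamini-Hochberg adjusted p below 0.05). With shAhR-2 in BE2C, 59 members fell and 10 rose, against 37.2% and 38.0% of all genes. In Kelly, 38 fell and 12 rose with shAhR-1, where 31.0% and 29.6% of all genes did, and 43 fell and 20 rose with shAhR-2, where 38.2% and 37.2% of all genes did. The share of members that fell was thus above the background in each of the 4 contrasts, and the share that rose was below it. Without the BE2C shAhR-2 library that stood apart, 59 members fell and 8 rose with that hairpin. Both hairpins of a line are compared with the same control libraries, so those results are not independent of each other. MRPL53 was not tested: it had 2 counts in all of BE2C and 1 in all of Kelly.

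**Figure D1:**
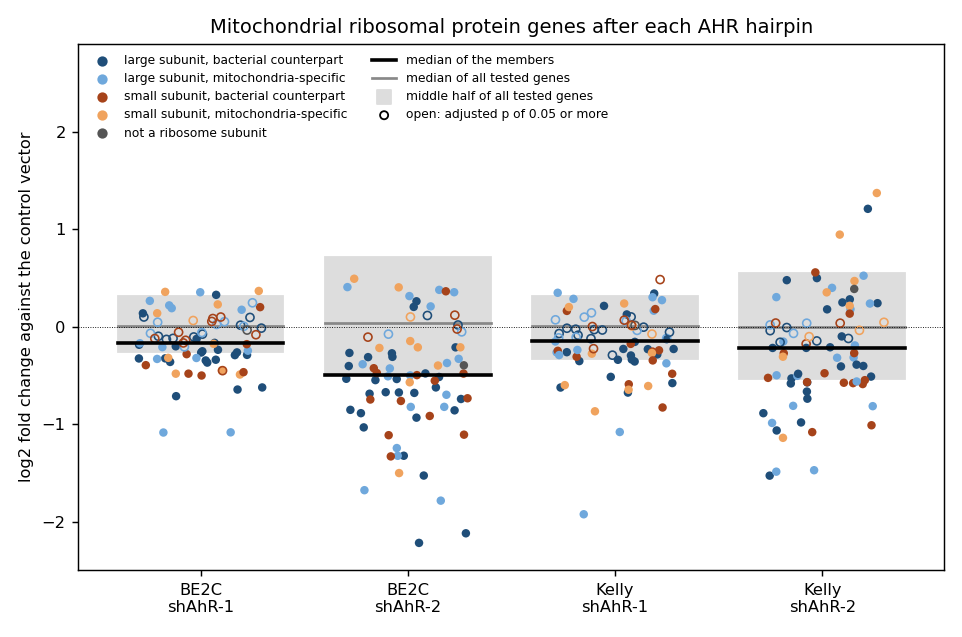
Log2 fold change of each of the 77 tested members (points, coloured by subunit and origin) against the control vector, for each line and hairpin (x axis). Filled points passed an adjusted p of 0.05, black lines are the members' medians (-0.17, -0.50, -0.15 and -0.22 from left to right), and grey boxes run from the lower to the upper quartile of all tested genes; most members lie below 0 in each column.

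The shift was largest in BE2C with shAhR-2. The median member had a log2 fold change of -0.17 in BE2C with shAhR-1 and -0.50 with shAhR-2, where the median of all 15732 tested genes was 0.01 and 0.03. In Kelly the member medians were -0.15 and -0.22, beside 0.00 and -0.01 over 15871 genes. Between their quartiles the members ran from -0.82 to -0.21 in BE2C with shAhR-2 and from -0.57 to 0.13 in Kelly with shAhR-2. The extremes were MRPL45, lowest with shAhR-1 in both lines at -1.09 and -1.92, MRPL4, lowest with shAhR-2 in both lines at -2.22 and -1.53, and MRPS27, highest in Kelly with shAhR-2 at 1.37.

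Summed over the members, the level in BE2C was 3577 ± 27 CPM (SD, n = 3) in controls, 3197 ± 27 with shAhR-1 and 2531 ± 25 with shAhR-2. In Kelly the sums were 3433 ± 28, 2985 ± 48 and 3254 ± 11 CPM. Large subunit genes summed to 2330, 2074 and 1564 CPM in BE2C and to 2174, 1953 and 1843 CPM in Kelly, in the order control, shAhR-1 and shAhR-2. Small subunit genes summed to 1212, 1088 and 940.2 CPM in BE2C and to 1239, 1013 and 1386 CPM in Kelly. The Kelly shAhR-2 sum of the small subunit was thus above all 3 controls. Without MRPS27 the Kelly small subunit sums were 1086 ± 15, 912 ± 12 and 990 ± 11 CPM, with shAhR-2 below all controls. MRPS27 was picked after values were seen, as the member that rose most in that group. Leaving it out therefore had to lower that group against its controls, and no like removal was made for members that fell. No test was run on the sums.

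**Figure D2:**
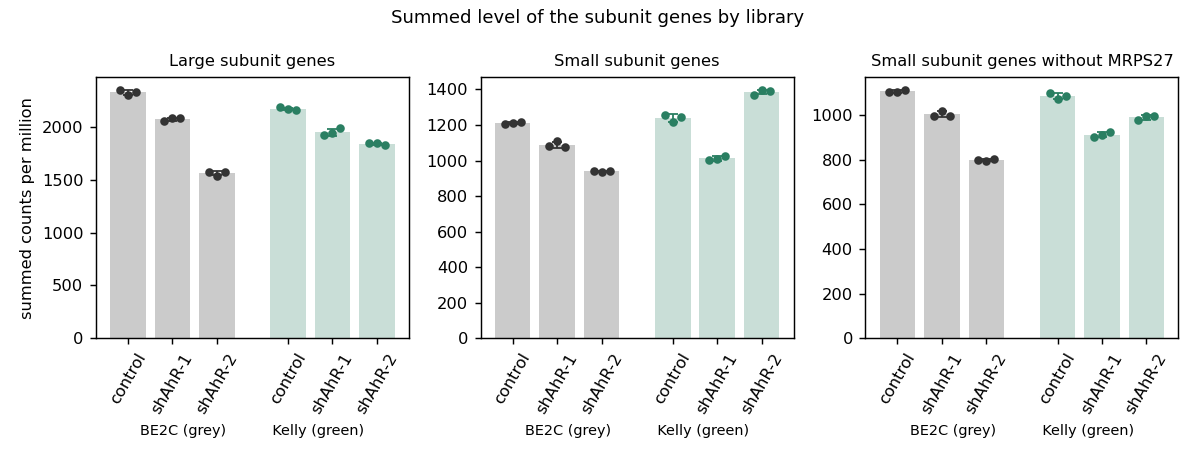
Summed CPM of large subunit genes, small subunit genes, and small subunit genes without MRPS27 (y axes) in the 6 groups; bars are means, points the 3 libraries and error bars the SD. Each shRNA group lies below its controls except the Kelly shAhR-2 small subunit sum, which lies below them once MRPS27, the member that rose most there, is left out.

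For the counts by class, the shares of all tested genes serve as background. In BE2C 27.1% fell and 25.2% rose with shAhR-1, and 37.2% fell and 38.0% rose with shAhR-2. In Kelly these shares were 31.0% and 29.6%, then 38.2% and 37.2%. Large subunit genes with a bacterial counterpart fell most often in BE2C, where 19 of 30 fell and 2 rose with shAhR-1, and 26 fell and 2 rose with shAhR-2. In Kelly 16 fell and 3 rose with shAhR-1, and 18 fell and 7 rose with shAhR-2. Of the 20 tested mitochondria-specific large subunit genes, 7 and 13 fell in BE2C and 7 and 12 in Kelly, with 5 risers in each of the 4 contrasts. With shAhR-1 the counts of this class were near the background in both lines. Small subunit genes with a bacterial counterpart, 16 in all, gave 6 and 12 that fell in BE2C and 9 and 11 in Kelly, with 1 or 2 risers. Of the 10 mitochondria-specific small subunit genes, 5 fell and 4 rose in BE2C with shAhR-1, 7 fell and 2 rose there with shAhR-2, 6 fell and 2 rose in Kelly with shAhR-1, and 2 fell and 5 rose there with shAhR-2. Their median log2 fold change was -0.21 in BE2C and 0.13 in Kelly with shAhR-2. No other class of ribosome subunit genes had a median above 0 in any of the 4 contrasts.

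**Figure D3:**
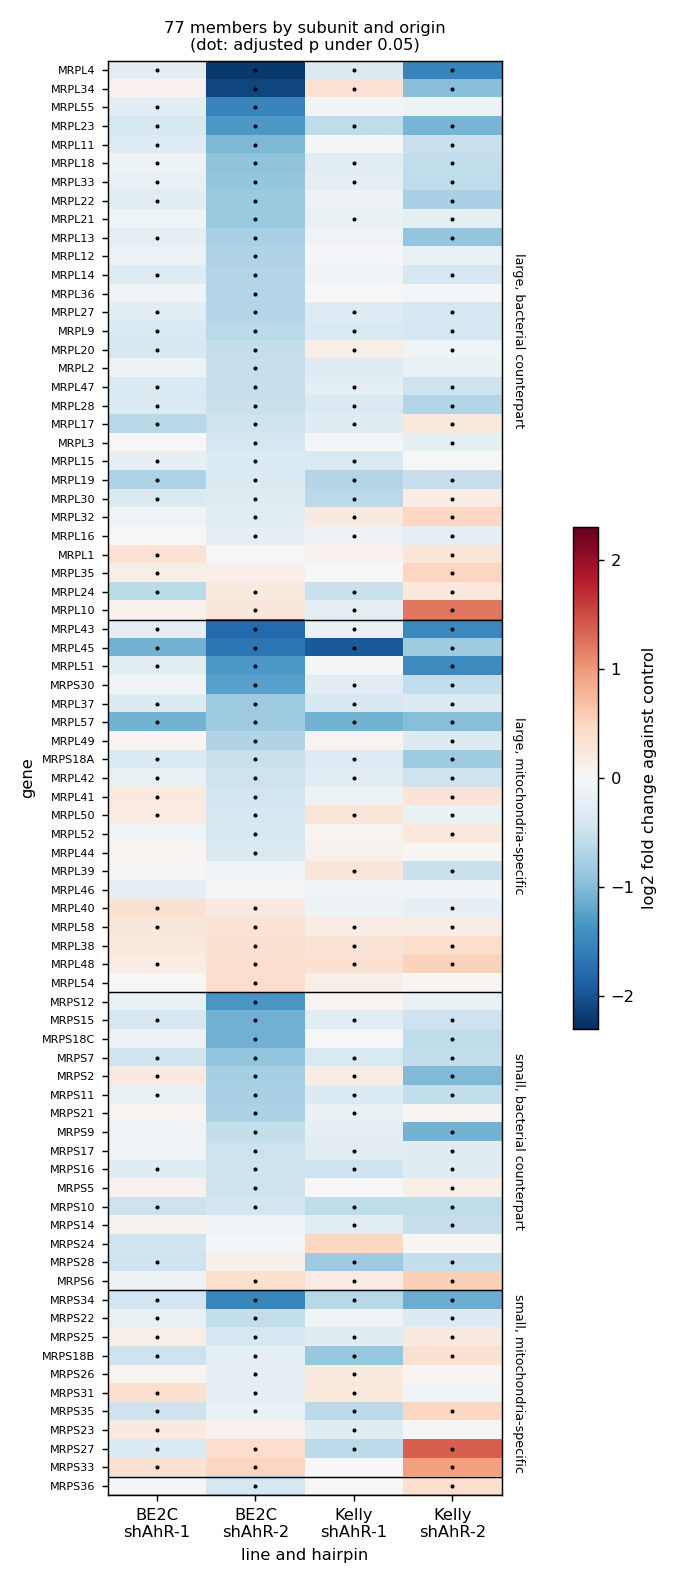
Log2 fold change (colour, blue for lower and red for higher than control) of the 77 tested members (rows, grouped by subunit and origin and ordered by the BE2C shAhR-2 value) in the 4 hairpin contrasts (columns); dots mark an adjusted p under 0.05. Most cells are blue, with 24, 14, 23 and 25 members above 0 from left to right, and the deepest red is in Kelly with shAhR-2, where MRPS27 reached 1.37 and MRPL10 1.21.

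Taking both hairpins together, 34 members fell with each hairpin in BE2C and 4 rose, where 17.4% and 14.6% of all tested genes did. In Kelly 27 fell with each hairpin and 5 rose, against 14.3% and 12.9%. Over all 4 contrasts 21 members fell and 2 rose, where 8.88% and 6.34% of the genes tested in both lines did. Those 21 were 9 large subunit genes with a bacterial counterpart, 6 mitochondria-specific large subunit genes, 5 small subunit genes with a bacterial counterpart and 1 mitochondria-specific small subunit gene. Without the BE2C shAhR-2 library that stood apart, 36 fell and 3 rose with both hairpins in BE2C, and 22 fell and 2 rose in all 4 contrasts.

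Among large subunit genes, MRPL57, a mitochondria-specific protein, and MRPL45 had the largest falls shared by all 4 contrasts. By the smallest of the 4 falls they were level, at 0.82 each on the log2 scale. MRPL57 stood at 19.4, 17.5 and 18.8 CPM in the BE2C controls, 8.22, 8.21 and 9.84 with shAhR-1 and 9.95, 10.9 and 10.7 with shAhR-2. Its Kelly levels were 25.8, 25.7 and 27.6 CPM in controls, 12.6, 11.8 and 12.9 with shAhR-1, and 12.1, 13.7 and 14.1 with shAhR-2. No shRNA library of either line reached the lowest control of that line. The log2 fold changes were -1.08 ± 0.09 (SE) and -0.82 ± 0.09 in BE2C and -1.08 ± 0.08 and -0.99 ± 0.07 in Kelly, with edgeR adjusted p from 5.28e-18 to 5.18e-10. MRPL57 is on chromosome 13 at 21176645 to 21179084 (GENCODE release 29).

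MRPL45, whose protein lies at the polypeptide exit and helps tether the ribosome to the inner membrane, gave the largest falls with shAhR-1; the gene is on chromosome 17 at 38297023 to 38323218 and holds the YY1 letters and a GCGTG shown above. Its levels in BE2C were 29, 29.5 and 27.8 CPM in controls, 12.6, 13.8 and 14.3 with shAhR-1 and 8.30, 9.23 and 9.44 with shAhR-2. In Kelly they were 25.4, 26.1 and 28.3 CPM, then 7.88, 6.25 and 6.94 with shAhR-1 and 14.8, 15.6 and 14.9 with shAhR-2. All shRNA libraries were below all controls, and the hairpins' order differed between the lines: shAhR-2 was lower in BE2C and shAhR-1 was lower in Kelly. The log2 fold changes were -1.09 ± 0.08 and -1.68 ± 0.08 in BE2C and -1.92 ± 0.08 and -0.82 ± 0.07 in Kelly, with edgeR adjusted p from 3.71e-26 to 7.37e-14. These values are uncertain because a copy of the gene, the pseudogene MRPL45P2, also held counts: with MRPL45P1, which had none, counts equal to 23.3% of MRPL45's own in BE2C and 63.6% in Kelly. How alike gene and copy are in sequence was not measured here, and whether reads were exchanged between them was not tested. MRPL45P2 stood at 9.66, 8.51 and 9.52 CPM in Kelly controls, 6.13, 5.43 and 6.96 with shAhR-1 and 15.5, 15.0 and 15.8 with shAhR-2. With shAhR-2 in Kelly it therefore rose while MRPL45 fell, by a log2 fold change of 0.74 ± 0.09 (edgeR adjusted p = 4.68e-10), and with shAhR-1 both fell, MRPL45P2 by 0.58 ± 0.10 on the log2 scale (2.79e-06). Gene and copy added up to 35.8, 13.2 and 30.6 CPM in the 3 Kelly groups, a log2 ratio to control of -0.23 with shAhR-2 in place of -0.82, and to 32.3, 17.3 and 13.4 CPM in BE2C.

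MRPL23, which like its bacterial counterpart lines the exit tunnel, and MRPL9 were the other large subunit genes named by the size of a shared fall. MRPL23 fell in BE2C from 16.3, 13.6 and 14.8 CPM to 12.6, 11.4 and 10.5 with shAhR-1 and 6.2, 5.79 and 5.81 with shAhR-2. Its Kelly values were 8.64, 8.32 and 8.43 CPM in controls, 6.16, 5.16 and 5.69, then 3.75, 4.05 and 4.32. In both lines shAhR-2 was the lower hairpin and neither group overlapped the controls, with log2 fold changes of -0.37 (shAhR-1) and -1.32 (shAhR-2) in BE2C, and in Kelly of -0.58 and -1.06 (SE 0.10 to 0.12, edgeR adjusted p from 1.11e-13 to 0.00148). MRPL9 fell by 0.35 and 0.62 on the log2 scale in BE2C and by 0.36 and 0.39 in Kelly (SE 0.05 each), from 55.3 to 57.2 CPM and from 41.2 to 42.6 CPM in controls. MRPL17 fell with both hairpins in BE2C, where its controls held 35.4, 35.6 and 31.9 CPM, shAhR-1 libraries 21, 22.4 and 22.5, and shAhR-2 libraries 23.9, 23.8 and 26.1. In Kelly MRPL17 was at 10.4 to 13.3 CPM in controls and moved in opposite directions with the hairpins, by -0.28 ± 0.09 and 0.24 ± 0.09. Each of those Kelly calls was lost without 1 control library, replicate 1 for the fall (edgeR adjusted p = 0.0770) and replicate 2 for the rise (0.166).

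Of the small subunit genes, MRPS34, a mitochondria-specific protein needed for a stable small subunit, fell in all 4 contrasts, and the smallest of its 4 falls was larger than that of any other small subunit gene. The gene is on chromosome 16 at 1771890 to 1773155. In BE2C it stood at 54.8, 49.7 and 53.4 CPM in controls, 36.7, 39.1 and 40.0 with shAhR-1 and 17.4, 21 and 17.4 with shAhR-2. Kelly controls held 49.9, 44.2 and 49.1 CPM, shAhR-1 libraries 31.6, 29.9 and 29.9 and shAhR-2 libraries 20.3, 22.6 and 22. The 3 groups of each line formed separate steps, with shAhR-2 lowest in both. The log2 fold changes were -0.45 ± 0.06 and -1.50 ± 0.07 in BE2C and -0.65 ± 0.06 and -1.14 ± 0.06 in Kelly, with edgeR adjusted p from 6.39e-24 to 2.06e-07.

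MRPS10 and MRPS7, both with bacterial counterparts in the head of the small subunit, also fell with both hairpins in both lines. MRPS10 went from 61.3, 67.0 and 61.7 CPM in the BE2C controls to 44.8, 45.1 and 44.4 with shAhR-1 and 47.7, 44.7 and 49.1 with shAhR-2. The corresponding Kelly values were 50.8, 52.0 and 51.0, then 34.3, 33.4 and 34.5, then 32, 36.0 and 34.2 CPM. The hairpins gave near-equal levels of MRPS10 in both lines, with a difference of 0.07 ± 0.05 in BE2C (edgeR adjusted p = 0.177) and 0.00 ± 0.05 in Kelly (0.975). MRPS7, which binds the small ribosomal RNA, fell from 118, 123 and 120 CPM to 88.0, 87.0 and 85.9 and then 63.5, 64.7 and 63.0 in BE2C. In Kelly it fell by 0.35 ± 0.04 and 0.57 ± 0.04 on the log2 scale, and all its shRNA libraries were below the controls of 101, 103 and 104 CPM.

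**Figure D4:**
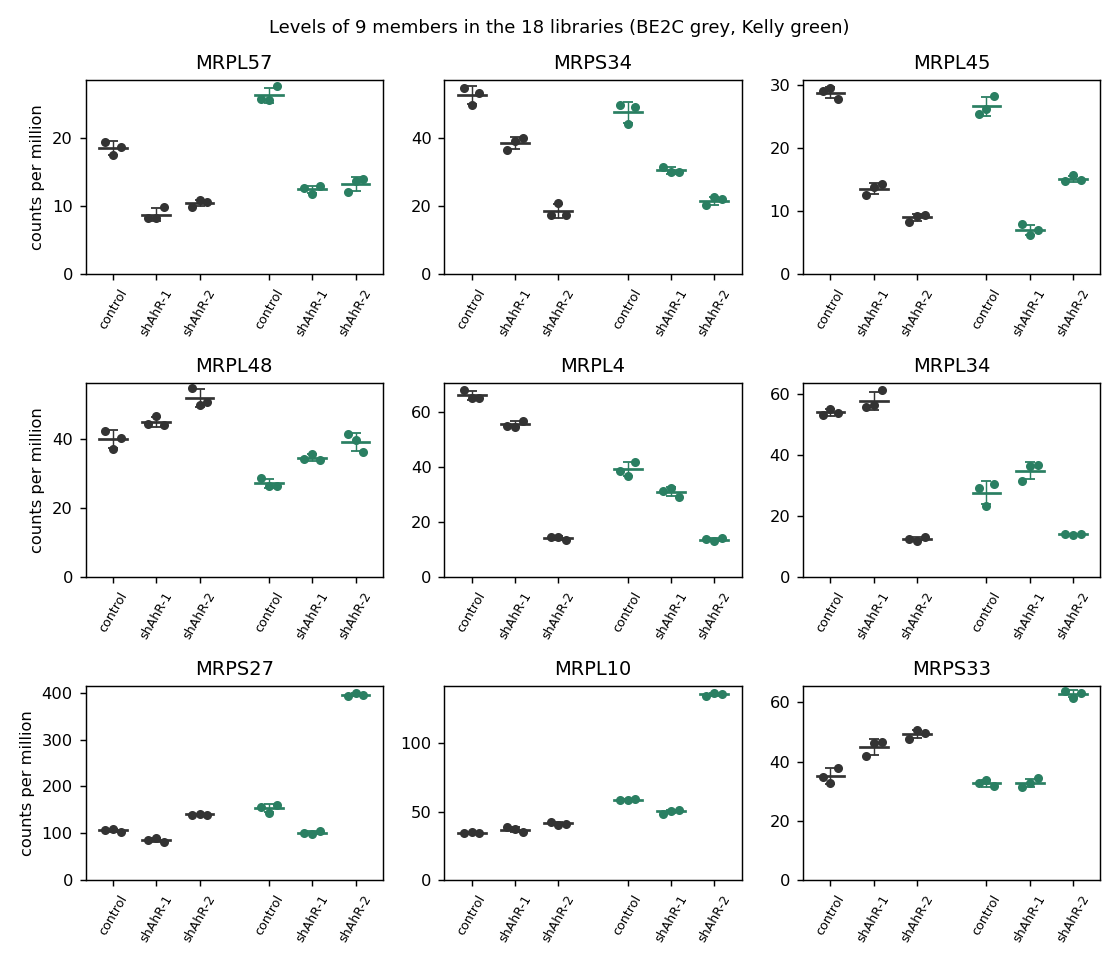
CPM (y axes, from 0) of 9 members in the 18 libraries, by group (x axes); points are libraries, horizontal lines means and error bars the SD, BE2C in grey and Kelly in green. MRPL57, MRPS34 and MRPL45 are below control with both hairpins in both lines, MRPL4 and MRPL34 drop with shAhR-2, and MRPS27 and MRPL10 are highest in Kelly with shAhR-2, at 393 to 400 and 135 to 137 CPM.

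Few members rose with both hairpins. MRPL48, a mitochondria-specific large subunit protein with its gene on chromosome 11 at 73787316 to 73865133, stood at 42.2, 37.1 and 40.1 CPM in the BE2C controls, 44.1, 46.6 and 44.0 with shAhR-1 and 54.7, 49.8 and 50.6 with shAhR-2. In Kelly it went from 28.5, 26.3 and 26.4 CPM to 33.9, 35.6 and 33.9 and then 41.2, 39.7 and 36.1. Every shRNA library was above the controls of its line. The log2 fold changes were 0.17 ± 0.05, 0.38 ± 0.05, 0.35 ± 0.06 and 0.52 ± 0.06 in BE2C with shAhR-1 and shAhR-2 and in Kelly with shAhR-1 and shAhR-2 (edgeR adjusted p from 9.74e-12 to 0.00748). The BE2C shAhR-1 call was lost without control replicate 2 (adjusted p = 0.0628) or shAhR-1 replicate 2 (0.0680).

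MRPL58, a peptidyl-tRNA hydrolase that also rescues stalled mitochondrial ribosomes, was the other member called higher in all 4 contrasts, by small amounts. Its BE2C levels were 14.4, 11 and 13.8 CPM in controls, 14.7, 16.1 and 16.3 with shAhR-1 and 15.5, 16.5 and 16.7 with shAhR-2, and its Kelly controls held 15.2, 17.6 and 17.4 CPM. The Kelly shRNA libraries ranged from 18.1 to 19.4 CPM. The log2 fold changes were 0.26 ± 0.09 and 0.31 ± 0.09 in BE2C and 0.16 ± 0.07 and 0.18 ± 0.07 in Kelly. With an edgeR adjusted p of 0.0492, the Kelly shAhR-1 call stood at the threshold; it was lost under 5 other settings, with adjusted p from 0.0510 to 0.103, and without any of the 7 Kelly libraries other than control replicates 2 and 3 (0.0512 to 0.316). The Kelly shAhR-2 call was lost with no filter on low counts and without control replicate 1 or shAhR-2 replicate 1 or 2 (edgeR adjusted p from 0.0564 to 0.199), and the BE2C shAhR-1 call without control replicate 2 or shAhR-1 replicate 2 or 3 (0.0592 to 0.152).

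The remaining named risers differed by line. MRPS33, a mitochondria-specific small subunit protein, rose in BE2C from 34.7, 32.7 and 37.9 CPM to 42.0, 46.3 and 46.6 with shAhR-1 and 47.7, 50.6 and 49.7 with shAhR-2. In Kelly it stood at 0.01 ± 0.05 with shAhR-1 and rose by 0.94 ± 0.05 with shAhR-2 (edgeR adjusted p = 1.57e-23). MRPL40 rose by 0.35 ± 0.08 and 0.21 ± 0.08 in BE2C, and its shAhR-2 call was lost without control replicate 1 or 2 or shAhR-2 replicate 1 or 3 (edgeR adjusted p from 0.0573 to 0.165). In Kelly, MRPL32, a large subunit protein processed by the m-AAA protease before assembly, rose from 69.0, 67.7 and 67.8 CPM to 76.2, 77.4 and 83.3 and then 95.5, 91.2 and 98.0. The BE2C libraries showed no such rise of MRPL32, with 65.3 to 67.2 CPM in controls and 52.4 to 56.6 with shAhR-2. MRPL38 and MRPS6 rose in Kelly by 0.30 ± 0.12 and 0.18 ± 0.07 with shAhR-1 and by 0.40 ± 0.12 and 0.56 ± 0.07 with shAhR-2. Both shAhR-1 calls were lost with DESeq2, at adjusted p of 0.0630 and 0.0567. The MRPL38 call was also lost without control replicate 1 or 3 or shAhR-1 replicate 1 or 2 (edgeR adjusted p from 0.0677 to 0.104). The MRPS6 call was also lost with no filter (edgeR adjusted p = 0.0556) and without control replicate 3 or shAhR-1 replicate 1 or 3 (0.0681 to 0.170). In BE2C both genes lay above all controls with shAhR-2 too, but overlapped them with shAhR-1. There MRPS6 had 15.4 to 15.9 CPM in controls and 19.7 to 20.5 with shAhR-2. MRPL38 had 3.74 to 4.83 and 5.10 to 5.53 CPM. MRPL38's BE2C shAhR-2 call was lost without control replicate 1 or 3 or shAhR-2 replicate 1 or 2 (edgeR adjusted p 0.0552 to 0.109).

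The hairpins differed from each other for most members. In BE2C, 53 members were lower and 13 higher with shAhR-2 than with shAhR-1, where 35.9% and 36.5% of all tested genes were. In Kelly 32 were lower and 24 higher, close to or below the background of 39.3% and 38.2%. The member medians of this difference were -0.38 in BE2C and -0.08 in Kelly.

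MRPL4 and MRPL34, both large subunit genes with bacterial counterparts, were the members most reduced with shAhR-2 in BE2C. MRPL4 stood at 67.8, 65.1 and 65 CPM in the BE2C controls, 55.0, 54.6 and 56.7 with shAhR-1, and 14.5, 14.5 and 13.5 with shAhR-2. In Kelly the steps were 38.7, 36.8 and 41.9, then 31.4, 32.3 and 29.1, then 13.7, 12.9 and 14 CPM. The 3 groups of a line did not overlap, and the fall was far larger with shAhR-2: -2.22 ± 0.05 against -0.25 ± 0.05 in BE2C and -1.53 ± 0.06 against -0.34 ± 0.06 in Kelly. MRPL34 was not lower with shAhR-1 at all. It went from 53.2, 55.2 and 53.6 CPM in BE2C controls to 55.9, 56.4 and 61.2 and then 12.5, 11.8 and 13, and from 29.1, 23.3 and 30.5 CPM in Kelly controls to 31.6, 36.3 and 36.8 and then 14.1, 13.7 and 14.1. Between the hairpins MRPL34 differed by -2.22 ± 0.06 in BE2C and -1.32 ± 0.08 in Kelly (edgeR adjusted p = 3.90e-26 and 4.23e-22). MRPL34 shares 13.2% of its exon bases with ABHD8 in GENCODE release 29.

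MRPL43 and MRPL51, mitochondria-specific large subunit genes, behaved alike. MRPL43 held 35.8, 34.6 and 32.5 CPM in the BE2C controls, 30.8, 29.1 and 29.1 with shAhR-1 and 8.78, 10.01 and 11 with shAhR-2, and in Kelly 31.0, 33.6 and 29.1, then 27.2, 28.5 and 28.7, then 11.5, 10.9 and 11.1. MRPL51 dropped in Kelly from 110, 111 and 106 CPM in controls to 36.6, 41.3 and 39.8 with shAhR-2, while its shAhR-1 libraries, at 97.8, 107 and 113, overlapped the controls. Both share exon bases with a neighbour, MRPL43 36.9% with SEMA4G and MRPL51 31.3% with NCAPD2, and whether the counting used strand is not given in the sources used here, so part of their counts may belong to the neighbour. The Kelly shAhR-1 fall of MRPL43, -0.15 ± 0.06, was lost with DESeq2 (adjusted p = 0.0706) and without control replicate 1 or 2 or shAhR-1 replicate 1 or 2 (edgeR adjusted p from 0.0520 to 0.238). Its BE2C shAhR-1 fall, -0.21 ± 0.07, was lost without control replicate 1 (edgeR adjusted p = 0.0583).

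In the opposite direction, MRPS27, a small subunit protein with pentatricopeptide repeats, had the largest difference between hairpins of any member in Kelly. The gene is on chromosome 5 at 72219409 to 72320646. Kelly controls held 155, 144 and 160 CPM, shAhR-1 libraries 100, 97.4 and 104, and shAhR-2 libraries 393, 400 and 395. In BE2C its levels were 106, 108 and 103 CPM, then 84.3, 88.6 and 81.2, then 140, 141 and 139. The direction was the same in both lines, lower than control with shAhR-1 and higher with shAhR-2, with hairpin differences of 1.98 ± 0.03 in Kelly and 0.72 ± 0.04 in BE2C (edgeR adjusted p = 1.05e-44 and 5.10e-18). MRPL24 showed the same pattern: 59.8, 57.9 and 56.2 CPM in BE2C controls, 39.3, 38.0 and 35.6 with shAhR-1 and 71.0, 63.9 and 65.3 with shAhR-2, and in Kelly 46.9 to 48.1, 31.8 to 34.1 and 55.1 to 57.3. Neither shRNA group of MRPL24 overlapped the controls in either line. MRPS28, which had 3.19 to 5.90 CPM in BE2C, also fell there with shAhR-1 (-0.48 ± 0.15) but not with shAhR-2 (0.12 ± 0.14); the shAhR-1 call was lost without control replicate 3 (edgeR adjusted p = 0.0653).

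MRPL10, MRPL12 and MRPL11 form the stalk and its base, where translation factors bind. MRPL10 held 34.4, 34.8 and 34.5 CPM in BE2C controls, 38.5, 37.4 and 34.8 with shAhR-1 and 42.7, 40.6 and 40.9 with shAhR-2. In Kelly it went from 58.4, 58.6 and 59.5 CPM to 48.5, 50.9 and 51.1 with shAhR-1 and up to 135, 137 and 136 with shAhR-2, a log2 fold change of 1.21 ± 0.04 (edgeR adjusted p = 2.10e-33). MRPL12, which binds MRPL10 in several copies, did not follow it: with shAhR-2 it fell in BE2C by 0.69 ± 0.09 on the log2 scale and had 13.1, 13.8 and 14.4 CPM in Kelly controls against 11.8, 12.5 and 12.7 (edgeR adjusted p = 0.0805). MRPL11 fell with shAhR-2 in both lines, from 69.8, 62.9 and 67.3 to 33.9, 31.7 and 32.2 CPM in BE2C and from 57.0, 55.1 and 53.0 to 38.5, 39.3 and 38.1 CPM in Kelly.

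The 3 genes of the MRPS18 family, which arose from 1 bacterial counterpart, gave 3 patterns. MRPS18A, counted with the large subunit, fell in all 4 contrasts, by 0.33 and 0.51 on the log2 scale in BE2C and by 0.29 and 0.81 in Kelly (SE 0.10 each), and its Kelly shAhR-1 call was lost without control replicate 1 (edgeR adjusted p = 0.110). MRPS18C had 12.1, 13.3 and 12 CPM in BE2C controls, 11.8, 11 and 11.2 with shAhR-1 and 5.50, 6.01 and 5.85 with shAhR-2, so that both groups lay below the controls; the shAhR-1 difference, -0.14 ± 0.09, did not pass (edgeR adjusted p = 0.219). MRPS18B stood at 30.6, 26.7 and 28.3 CPM in Kelly controls, 15.6, 15.6 and 15.7 with shAhR-1, and 35.6, 36.8 and 36.9 with shAhR-2. It was thus below all controls with one hairpin and above all with the other in Kelly, while in BE2C it fell with both, by 0.49 ± 0.06 and 0.22 ± 0.06 on the log2 scale. MRPS18A shares 47.0% of its exon bases with RSPH9 and MRPS18C 40.2% with ABRAXAS1, and their counts are uncertain for that reason.

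Whether the lines responded alike was tested with an interaction in one fit of all 18 libraries, the BE2C change less the Kelly change. For shAhR-1, the BE2C change was higher for 15 members and lower for 8, where 17.5% and 18.2% of all 17136 tested genes were. For shAhR-2, it was lower for 46 members and higher for 8, where 25.8% and 28.8% of all genes were, and the member median was -0.29 beside 0.05 for all genes. Without the BE2C shAhR-2 library that stood apart, 46 were lower and 6 higher. AHR counts differed between the lines and hairpins as given above, so that the size of the knockdown cannot be told apart from the line.

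**Figure D5:**
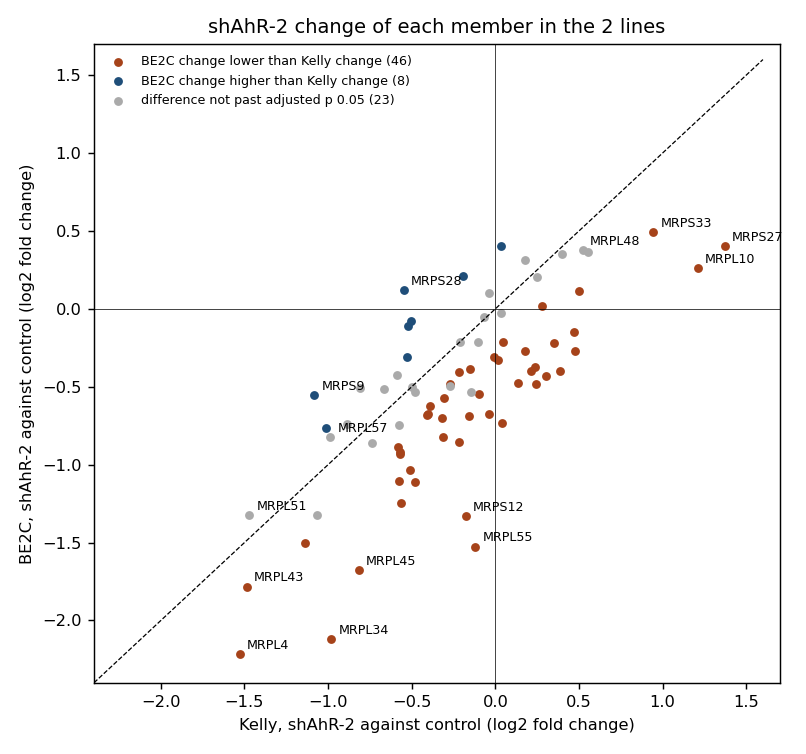
Log2 fold change of each of the 77 members with shAhR-2 in Kelly (x axis) and in BE2C (y axis), coloured by the interaction test; the dashed line marks equal changes. The 46 members with a lower change in BE2C lie below the line and the 8 with a higher change above it; MRPL55 and MRPS12 fell in BE2C and stayed near 0 in Kelly.

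MRPL55 had the largest difference between the lines with shAhR-2. It fell in BE2C from 17.3, 15.7 and 15.8 CPM in controls to 5.61, 5.64 and 5.64, and in Kelly stood at 24.8, 24.2 and 24 in controls and 21.7, 24.4 and 21 with shAhR-2, which overlap. The interaction was -1.42 ± 0.11 (edgeR adjusted p = 7.24e-16). MRPS12, a protein of the decoding centre, fell in BE2C from 8.74, 9.87 and 7.75 to 3.81, 3.35 and 3.33 CPM, while its Kelly libraries ranged from 3.98 to 5.56 CPM over all groups, with an interaction of -1.17 ± 0.19 (adjusted p = 4.15e-07). MRPL34 followed with -1.15 ± 0.10, although it fell in both lines. MRPS30, counted with the large subunit, fell in BE2C from 80.9, 91.3 and 85.6 to 38.0, 34.2 and 36.6 CPM and in Kelly from 78.1, 77.7 and 80.0 to 51.2, 53.7 and 54.8, an interaction of -0.70 ± 0.06.

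Differences in the other direction with shAhR-2 were smaller: 0.65 ± 0.22 for MRPS28, 0.51 ± 0.14 for MRPS9 and 0.41 ± 0.11 for MRPL39. MRPS9 stood at 18.5, 17.0 and 16.9 CPM in BE2C controls and 12.1, 12.5 and 11.2 with shAhR-2, and at 11.9, 11.8 and 10.7 against 4.70, 5.97 and 5.56 CPM in Kelly. With shAhR-1 the largest interactions were 0.85 ± 0.12 for MRPL45, 0.51 ± 0.06 for MRPS23 and 0.48 ± 0.11 for MRPL40, then -0.48 ± 0.06 for MRPL20, -0.35 ± 0.11 for MRPL17 and -0.30 ± 0.06 for MRPL32. MRPS23 rose in BE2C, from 59.1, 56.1 and 56.6 to 66.4, 71.3 and 63.8 CPM, and fell in Kelly, from 75.2, 74.1 and 70.4 to 59.9, 61.2 and 60.4. MRPL20 went the other way, from 81.6, 77.2 and 75.7 to 60.7, 59.96 and 61.9 CPM in BE2C and from 62, 56.4 and 58.3 to 63.8, 63.5 and 65.6 in Kelly. The Kelly rise of MRPL20, 0.13 on the log2 scale, was lost without Kelly control replicate 2 (edgeR adjusted p = 0.0801). The MRPL17 interaction was lost without Kelly control replicate 2 (edgeR adjusted p = 0.0743). MRPS36, the member that is no ribosome subunit, was near its controls with shAhR-1 in both lines, and with shAhR-2 it fell by 0.40 ± 0.06 on the log2 scale in BE2C and rose by 0.39 ± 0.06 in Kelly.

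Before any hairpin, the lines already differed. In BE2C controls 39 members were higher and 26 lower than in Kelly controls, where 37.2% and 39.0% of all genes were, with a member median of 0.19 beside -0.03 for all genes. The library is the unit of this comparison and each line is a single line, so nothing here speaks for other neuroblastomas. The largest excesses in BE2C were MRPL17 at 1.59 ± 0.08, MRPL50 at 1.57 ± 0.06, MRPS5 at 1.09 ± 0.05, MRPL34 at 1.05 ± 0.07 and MRPL35 at 1.04 ± 0.06. MRPL50 held 51.8, 48.2 and 56.8 CPM in BE2C controls and 18.7, 19.2 and 17.6 in Kelly controls, each scaled within its line. The largest deficits were MRPL1, a protein of the stalk near the exit site, at -1.05 ± 0.07, MRPS14 at -0.86 ± 0.06, MRPL19 at -0.71 ± 0.05, MRPL10 at -0.69 ± 0.04 and MRPL16 at -0.64 ± 0.07. MRPS14 held 34.1, 30.6 and 33.1 CPM in BE2C and 62.6, 63.2 and 61.4 in Kelly controls. By chromosome the numbers of members were small, and the share of all tested genes on each chromosome was not computed. All 4 members tested on chromosome 19 and all 3 on chromosome 8 were higher in BE2C. On chromosome 3 none of 4 was higher and 3 were lower. Other chromosomes were mixed, such as chromosome 1 with 4 higher and 4 lower and chromosome 17 with 3 higher and 4 lower. Copy number was not measured in these data, and its part in these differences was not tested.

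Levels of different genes can be compared only per length, and here CPM were scaled over all 18 libraries together and divided by the median length of the APPRIS principal transcripts in GENCODE release 29. On that scale the control levels ran from 0 to 117 CPM per kb in BE2C, with a median of 25.4, and from 0.0069 to 138 in Kelly, with a median of 23.9. MRPL33 was highest in both lines, at 117 ± 3.1 and 138 ± 1.6 CPM per kb (SD, n = 3), followed in Kelly by MRPL3 at 119 ± 2.5 and in BE2C by MRPL20 at 111 ± 4.5. In BE2C, MRPL33 and MRPL20 were closer than the sum of their SDs, and MRPL3 followed at 97.5 ± 2.8. MRPL33 shares 21.1% of its exon bases with other genes, most with BABAM2, and MRPL20 15.5%, most with RN7SL657P. The order depends on the length used: by merged exons MRPL15 came first in BE2C and MRPL3 in Kelly. At the foot stood MRPL38, MRPL2, MRPS24 and MRPL53 in both lines, with MRPS24 at 1.83 and 1.22 CPM per kb. MRPS24 had 0.675 to 1.36 CPM in any library and no called change, and MRPL53 shares 45.2% of its exon bases with CCDC142.

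Partners of the ribosome from lists fixed by gene name were counted in the same fits, and a gene counts here when each hairpin gave a call of the same sign. Over all tested genes, as above, 17.4% fell and 14.6% rose by that rule in BE2C, and 14.3% and 12.9% did in Kelly. Of the 5 mitochondrial ribosomal proteins with other symbols, 3 fell and none rose in BE2C and 2 fell and none rose in Kelly. AURKAIP1, a small subunit protein, fell in BE2C from 88.6 to 91.7 CPM in controls to 60.2 to 66.1 and 55.5 to 59.0, and in Kelly by 0.44 ± 0.04 and 0.15 ± 0.04 on the log2 scale. CHCHD1, also of the small subunit, fell by 0.19 ± 0.06 and 0.65 ± 0.07 in BE2C and by 0.47 ± 0.07 and 0.59 ± 0.07 in Kelly. DAP3, a GTP-binding protein of the small subunit, changed sign with the hairpin in BE2C, at 0.14 ± 0.03 and -0.20 ± 0.03.

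Of 26 assembly factors, 4 fell and 3 rose in BE2C, and 4 fell and 1 rose in Kelly; the shares were near those of all genes, apart from the single riser in Kelly. In BE2C, MTG1, a GTPase of large subunit assembly, and NSUN4, a ribosomal RNA methyltransferase, rose by 0.53 and 0.69 and by 0.41 and 0.60 on the log2 scale, while RCC1L and MTERF3 fell. NOA1, a GTPase linked to small subunit assembly, had the largest change of the list: it stood at 32.3, 30.8 and 31.2 CPM in BE2C controls, 30.4, 30.1 and 31.0 with shAhR-1 and 4.93, 5.25 and 4.25 with shAhR-2. In Kelly NOA1 fell with both hairpins, from 39.9, 39.2 and 43.6 CPM to 30.4, 31.5 and 30.5 and then 6.25, 6.24 and 6.64. C1QBP, a matrix protein linked to ribosome assembly, fell with both hairpins in Kelly as well, and TRUB2, a pseudouridine synthase, rose there by 0.31 ± 0.05 and 0.35 ± 0.04.

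Of 17 translation factors and messenger RNA partners, 6 fell and none rose in BE2C, among them SLIRP, which stabilizes mitochondrial messenger RNAs, and TUFM, the elongation factor that delivers transfer RNAs. TUFM went from 213, 220 and 205 CPM to 184, 179 and 186 and then 122, 119 and 111 in BE2C. In Kelly 3 fell, with GUF1 and GFM2 foremost, and 2 rose, MTIF3, an initiation factor, and MTRES1, shares near those of all genes. Of 19 tested transfer RNA charging enzymes, 6 fell in BE2C, MARS2 among them, and 5 in Kelly, led by IARS2 and AARS2; TARS2 alone rose, in BE2C, by 0.81 ± 0.07 and 0.59 ± 0.07. Of 9 genes of mitochondrial transcription and DNA maintenance, 3 fell in BE2C, with TWNK, the helicase, and POLRMT, the RNA polymerase, named, and 2 in Kelly, MTERF1 and SSBP1. None of the 9 rose with both hairpins in either line.

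The mitochondrially encoded transcripts that these ribosomes contain and translate moved differently. The small mitochondrial ribosomal RNA MT-RNR1 rose in BE2C by 0.32 ± 0.05 with shAhR-1 and 0.12 ± 0.05 with shAhR-2, whereas in Kelly MT-RNR1 fell by 0.75 ± 0.05 and 1.19 ± 0.05 and the large MT-RNR2 by 0.11 ± 0.02 and 0.50 ± 0.02 on the log2 scale. Libraries were depleted of ribosomal RNA before sequencing, so the levels of these RNAs are what escaped that step. Of the 13 mitochondrially encoded messenger RNAs, all 13 rose with shAhR-1 in BE2C and 11 in Kelly. Of all tested genes, 25.2% and 29.6% rose with that hairpin. With shAhR-2, 5 rose and 5 fell in BE2C, near the 38.0% and 37.2% of all genes. In Kelly 6 rose and 5 fell with shAhR-2, near 37.2% and 38.2%. With both hairpins 5 rose and none fell in BE2C, where 14.6% and 17.4% of all genes did. By the same rule 6 rose and none fell in Kelly, against 12.9% and 14.3%. MT-ND1, a subunit of complex I, rose by 0.54 ± 0.05 and 0.48 ± 0.05 in BE2C and by 0.52 ± 0.03 and 0.79 ± 0.03 in Kelly. Mitochondrially encoded genes took 19.1%, 24.5% and 22% of counts in the BE2C groups and 15.2%, 17.5% and 15.5% in Kelly, in the order control, shAhR-1 and shAhR-2. With those genes left out before scaling, the member counts were 37 lower and 12 higher, 59 and 10, 37 and 11, and 43 and 20, in the order BE2C shAhR-1 and shAhR-2 and Kelly shAhR-1 and shAhR-2.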

How the data were processed

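The authors deposited raw counts per gene in 2 tables, 1 per line. Per the labels' protocols, libraries were made from total RNA with ribosomal RNA removed. Per the submitters' processing notes, CASAVA 1.8.2 and STAR 2.7.9a were used with GRCh38.p7. How genes were counted, with which annotation and strand setting, is not stated in the labels or notes. In each library 68.3% to 72.5% of counts of 1 to 20 were even, so mates may have been counted separately. A trial with halved counts is among the alternatives.

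Each line was fitted alone with edgeR 4.0.16 (filterByExpr, TMM, glmQLFit, glmQLFTest), its 3 groups in 1 model, with calls at an adjusted p below 0.05 (Benjamini-Hochberg over all tested genes). The interaction and the comparison of controls came from 1 fit of all 18 libraries. CPM use TMM library sizes within a line, except levels per kb, which use those of the 18-library fit. A gene called with both hairpins, or in all 4 contrasts, had to have 1 sign. Each SE was derived from a log2 fold change and its F value. Named genes were 11 fixed members plus, by size of change among those called, up to 5 a direction with both hairpins of a line, 6 in all 4 contrasts, 3 between hairpins, 3 in each interaction and 5 between controls. The sums of MRPL45 with its copy and of the small subunit without MRPS27 were added after values were seen. The members, lists and rules were chosen with earlier results of these data known. The bases of 4 promoters were to be printed, but those inside a GENCODE exon were left out. Protein sequences were not used here. The method was tested on simulated data. Libraries with the same replicate number showed no shared deviation, and no pairing was used in the main fits. Alternatives also covered RLE size factors, filters, DESeq2 1.42.0 and leaving out libraries. Software was Python 3.11.15 with pandas 2.3.3, numpy 2.4.6 and matplotlib 3.10.9, and R 4.3.3.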

Additional observations from a re-analysis of the deposited data

Results flagged for a closer look

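Each result here is a named member whose change against control differed between the lines in the interaction test (edgeR's quasi-likelihood test, Benjamini-Hochberg adjusted p below 0.05), given as the BE2C log2 fold change less the Kelly one.

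With shAhR-1 the BE2C change was higher for MRPL45 (0.85), MRPS23 (0.51), MRPL40 (0.48), MRPS18B (0.38), MRPS33 (0.36), MRPS14 (0.34), MRPL10 (0.33), MRPS27 (0.30) and MRPS30 (0.18). It was lower for MRPL20 (-0.48), MRPL17 (-0.35), MRPL32 (-0.30), MRPS6 (-0.30), MRPL11 (-0.25), MRPL34 (-0.23) and MRPL51 (-0.20).

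With shAhR-2 the BE2C change was higher for MRPS28 (0.65), MRPS9 (0.51), MRPL39 (0.41), MRPS14 (0.40), MRPL40 (0.38) and MRPL19 (0.20). Small subunit genes with a lower change in BE2C were MRPS12 (-1.17), MRPS27 (-0.99), MRPS5 (-0.63), MRPS18B (-0.59), MRPS18C (-0.55), MRPS33 (-0.47), MRPS34 (-0.38) and MRPS7 (-0.37). Large subunit genes with a lower change were MRPL55 (-1.42), MRPL34 (-1.15), MRPL10 (-0.97), MRPL45 (-0.88), MRPL32 (-0.76), MRPL17 (-0.74), MRPL4 (-0.71), MRPS30 (-0.70), MRPL12 (-0.55), MRPL11 (-0.54), MRPL20 (-0.47), MRPL35 (-0.40), MRPL43 (-0.32), MRPL1 (-0.28), MRPL9 (-0.25) and MRPL50 (-0.25). MRPS36, no ribosome subunit, differed by -0.80.

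Some shAhR-1 calls were lost without 1 library: MRPL34 (11 settings, DESeq2 included, adjusted p up to 0.303 without Kelly control replicate 2), MRPL17 (0.0743, the same library), MRPL51 (0.0546, Kelly shAhR-1 replicate 3), MRPS30 (0.0863, BE2C control replicate 1; 0.0836 with no filter) and MRPS6 (0.0676 to 0.0918, without BE2C shAhR-1 replicate 1, Kelly control replicate 3 or Kelly shAhR-1 replicate 1). For shAhR-2 these were MRPL19 (0.0679, BE2C control replicate 2; 0.0525, Kelly shAhR-2 replicate 1; 0.197 with no filter) and MRPL43 (0.0503, BE2C shAhR-2 replicate 1). All are edgeR values except the DESeq2 one.

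MRPL45, MRPS27, MRPL10, MRPS18B, MRPS33 and MRPS30 thus had interactions of opposite sign with the 2 hairpins. Whether the hairpins' interactions differ was not tested.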

How the results depend on the processing

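Of 480 member counts under alternative settings, 455 were within 1.5 times the reported count. The 34, 27 and 21 members lower with both hairpins in BE2C, in Kelly and in all 4 contrasts ranged over 30 to 36, 23 to 28 and 18 to 22 with 1 library left out. The count of 5 higher with both hairpins in Kelly became 3 with no filter on low counts, 2 with DESeq2 and 2 to 5 with 1 library left out (3 or fewer without control replicate 1 or 3 or any shAhR-1 library). The count of 4 in BE2C became 1 to 6 (1 without control replicate 2, 2 without shAhR-1 replicate 2). The count of 2 higher in all 4 contrasts became 1 with no filter, with a replicate block, without mitochondrially encoded genes, in fits of only the groups compared and with DESeq2. It became 0 without BE2C control replicate 2 or BE2C shAhR-1 replicate 2, and 1 without BE2C shAhR-1 replicate 3, Kelly control replicate 1 or any Kelly shRNA library. For the shAhR-2 interaction, the 8 higher became 5 with no filter, and 5 to 9 with 1 library left out. The cause was not tested. Leave-one-out ranges were 8 to 13 higher and 33 to 39 lower in BE2C with shAhR-1, and 13 to 17 higher and 6 to 12 lower for the shAhR-1 interaction. The replicate block gave 59 lower and 10 higher in BE2C with shAhR-2, as reported. Deviations of same-numbered libraries from their group means correlated by -0.031 to 0.038 in BE2C and -0.017 to 0.014 in Kelly. No shared effect of the replicate number was thus seen, which does not tell whether such libraries were prepared together. Depth limits MRPL53 (at most 2 counts a library) and MRPS24 (27 to 59).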
